A study of Sus scrofa with 13 samples.

Results

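Mitochondrial fatty acid oxidation was followed through 10 genes of 25322 in the deposited count tables: CD36, CPT1B, CPT2, ACADVL, ACADL, ACADM, ECHS1, HADHA, HADHB and ETFDH. They were chosen as a list of pathway symbols, each matched to 1 Ensembl gene present in the tables of both breeds, and all 10 passed the filter on low counts in every comparison. RNA was taken from the longissimus lumborum, the loin muscle, of 13 unrelated female pigs aged 6 months, and the pigs had been picked for a high or a low loin weight within their breed. Hampshire pigs numbered 3 with a high and 3 with a low loin weight, and Pietrain pigs 4 and 3. No pig received a treatment, 1 library was sequenced per pig, and pigs are named here by their group and the number in their label.

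Muscle fibres burn long-chain fatty acids in their mitochondria, in a repeated cycle of steps called the beta-oxidation spiral. CD36 takes fatty acids up through the cell membrane. CPT1B, on the outer mitochondrial membrane, joins them to carnitine, and CPT2, on the inner membrane, returns them to coenzyme A. The acyl-CoA dehydrogenases ACADVL, ACADL and ACADM (very long, long and medium chains) then make the first oxidation, and ECHS1 hydrates the shorter products. HADHA and HADHB are the alpha and beta subunits of the mitochondrial trifunctional protein, which carries out the remaining steps on long chains, and ETFDH passes the electrons from the dehydrogenases to ubiquinone in the respiratory chain.

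On Sscrofa10.2, CPT2 lies at chr6:146702081-146774794 and ACADM at chr6:127513773-127548453. ACADL lies at chr15:124758368-124793429, ECHS1 at chr14:153776315-153784497, ETFDH at chr8:50013290-50060767 and CD36 at chr9:110040077-110106938. HADHB (chr3:119649281-119690928) and HADHA (chr3:119690599-119782862) are neighbours whose annotated spans overlap by 330 bases. The library kit does not mark strand, so reads from that overlap cannot be told apart and both counts are uncertain to that extent. CPT1B was placed on the unassembled scaffold GL894016.1, from 26817 to 31912, and no position of ACADVL was used here.

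Total counts per pig ran from 11312755 to 20134612. Levels are given as CPM, counts relative to the library size after 1 TMM scaling over all 13 pigs, and were compared between pigs only, since no transcript lengths were used. ACTA1, CKM, DES and MYBPC1, markers of muscle fibres, were high in all pigs. Their sum was 119500 to 206800 CPM in Hampshire high and 75340 to 109800 CPM in Hampshire low pigs. CKM was called higher in those high pigs (log2 fold change 0.98, edgeR adjusted p = 0.032). ACTA1 and DES lay above 0 and MYBPC1 below (-0.55), and these were not called. Pietrain high pig 7 stood apart: its mean Spearman correlation over genes was 0.961 with the Hampshire low pigs and 0.946 with its own group. It was the 1 Pietrain pig closer to Hampshire low pigs than to Pietrain pigs, although pig 6 of the same group had a lower correlation within it (0.939). Whether the label of pig 7 is right could not be settled, so results that rest on it are also given without it. Slow fibre marker RNA differed between the Hampshire groups. The 5 measured slow fibre markers summed to 11700 to 17800 CPM in the high pigs and to 2834 to 6607 in the low pigs, and all 5 were called higher. Of the 4 measured fast fibre markers 1, MYH1, was called lower (log2 fold change -1.25, edgeR adjusted p = 0.039) and 0 were called higher. In bulk muscle, fewer cells of a type and less RNA per cell cannot be told apart.

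The first question was whether the pathway differed with loin weight in Hampshire pigs. ECHS1 and CPT2 were higher in high loin weight pigs, ACADM was lower, and the other 7 genes did not pass the test. A gene was called when its Benjamini-Hochberg adjusted p in edgeR's quasi-likelihood test was under 0.05 and its fold change at least 1.2. Over all 12228 genes tested, 26.6% were called, 12.0% higher and 14.6% lower. Of the 10 pathway members 2 were called higher and 1 lower. Their median log2 fold change was 0.30 against 0.03 over all genes. Of the 10 members 8 lay above 0, and of all genes tested 6309 of 12228 did.

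ECHS1, the enoyl-CoA hydratase, was measured at 127, 159 and 141 CPM in Hampshire high pigs 8, 9 and 10. In the low pigs 1, 2 and 3 it was at 73.2, 85.1 and 77.0 CPM. Every high pig was above every low pig, and the group means were 142 ± 16.3 and 78.5 ± 6.07 CPM (SD, n = 3 each). The log2 fold change was 0.85 with a standard error (SE) of 0.160 (edgeR adjusted p = 0.00771). The call held with any 1 of the 6 pigs left out, at adjusted p from 0.0120 to 0.0433.

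CPT2 stood at 32.9, 39.1 and 53.3 CPM in the high pigs and at 17.3, 27.2 and 18.9 CPM in the low pigs. The groups did not overlap, and the group means were 41.8 ± 10.5 and 21.2 ± 5.31 CPM (SD, n = 3 each). Its log2 fold change was 0.98 (SE 0.243, edgeR adjusted p = 0.0200). Without high pig 10 the adjusted p was 0.0692, without low pig 1 it was 0.0709, and without low pig 3 it was 0.0848.

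ACADM, the medium-chain dehydrogenase, went the other way. It was at 185, 167 and 151 CPM in the high pigs and at 276, 238 and 238 CPM in the low pigs, again with no overlap. The means were 168 ± 17.1 and 251 ± 21.6 CPM (SD, n = 3 each), a log2 fold change of -0.59 (SE 0.160, edgeR adjusted p = 0.0284). This call held only without high pig 8, and leaving out high pig 9 or 10 or low pig 1, 2 or 3 gave adjusted p from 0.0511 to 0.0981. The ratio of ECHS1 to ACADM within a pig was 0.683 to 0.955 in the high pigs and 0.266 to 0.357 in the low pigs. These ranges had to lie apart, since every high pig had more ECHS1 and less ACADM than any low pig.

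CPT1B, the muscle form of the outer-membrane enzyme, was at 35.3, 41.7 and 48.8 CPM in the high pigs and at 29.2, 35.2 and 28.9 CPM in the low pigs. The groups all but touched, and the log2 fold change of 0.43 (SE 0.179) did not pass (edgeR adjusted p = 0.102). The ratio of CPT2 to CPT1B was 0.931 to 1.09 in the high pigs and 0.593 to 0.772 in the low pigs. These 2 ranges did not overlap.

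HADHA ranged from 210.3 to 304 CPM in the high pigs and from 162 to 213 in the low pigs, with overlap, at a log2 fold change of 0.43 (SE 0.201, adjusted p = 0.143). Its partner HADHB ranged from 232 to 287 and from 210.0 to 303 CPM, at 0.08 (SE 0.198, adjusted p = 0.789). The HADHA to HADHB ratio was 0.908 to 1.06 in the high pigs and 0.704 to 0.867 in the low pigs, a separation that neither gene showed alone.

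Among the remaining members, ACADL had a log2 fold change of 0.42 (SE 0.205, adjusted p = 0.158), from 68.6 to 113 CPM against 63.4 to 77.0. ETFDH had 0.18 (SE 0.167, adjusted p = 0.456), and CD36 had 0.07 (SE 0.229, adjusted p = 0.842). ACADVL had few counts, 5 to 25 counts in the high pigs and 26 to 54 in the low pigs, at -0.93 (SE 0.441, adjusted p = 0.145). Groups did not overlap for 5 of the 10 members (CPT1B, CPT2, ACADM, ACADVL and ECHS1), while 45.9% of all genes tested had groups that did not overlap. The exact permutation test, counting both directions, gave p = 0.1 for each of these 5 genes and for the 3 ratios above. That is the smallest p that 3 against 3 allows, and groups that do not overlap always reach it. The test therefore adds nothing to the lack of overlap. How often ratios of other gene pairs separate was not tested.

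**Figure D1:**
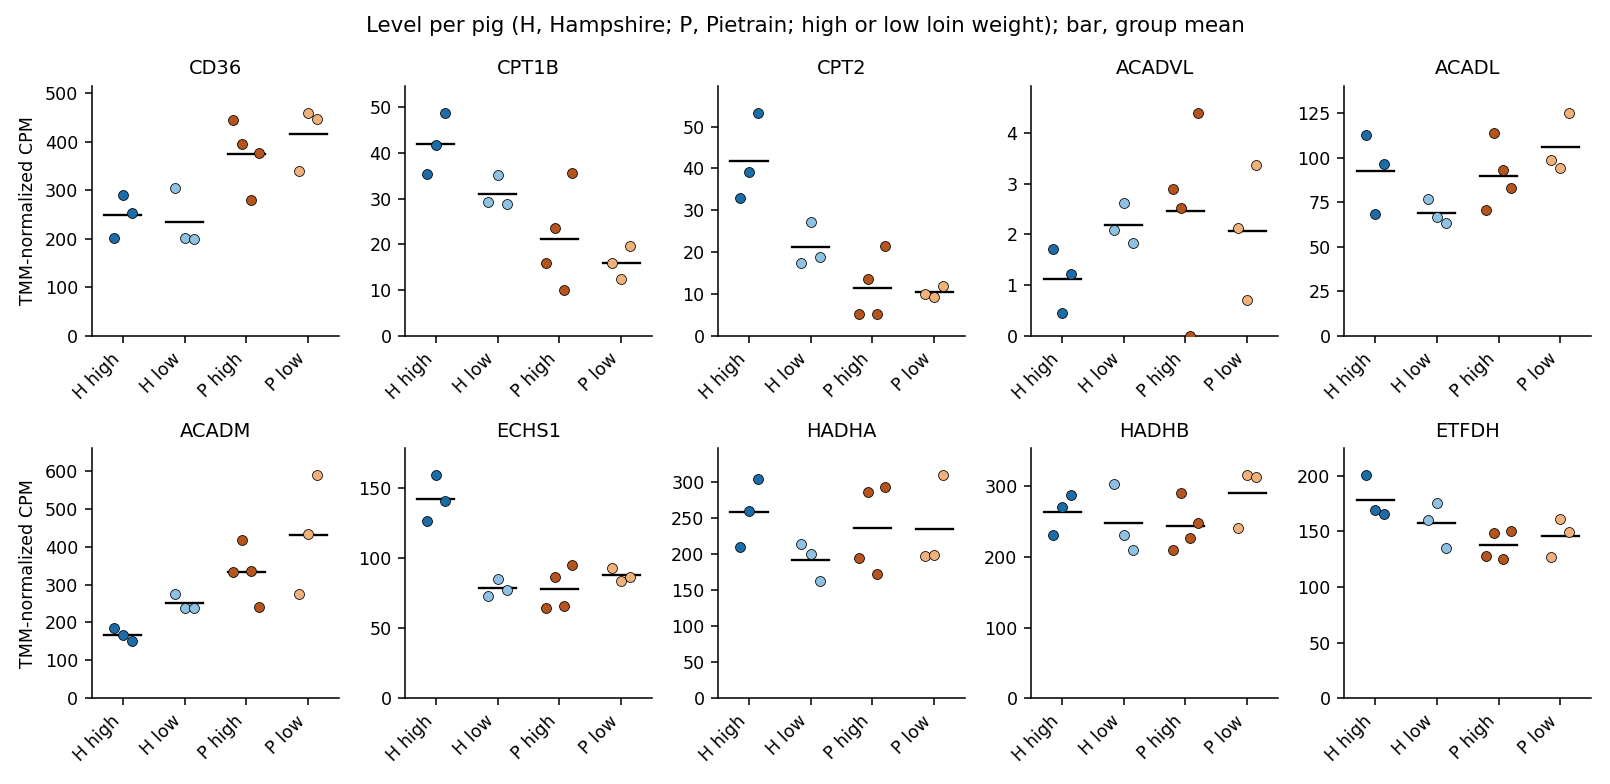
Level of each of the 10 genes in every pig, in TMM-normalized CPM on a linear axis from 0, with 1 panel per gene and 1 point per pig. Bars mark group means (n = 3, 3, 4 and 3 pigs). ECHS1 is at 127 to 159 CPM in the Hampshire high pigs and below 95 in all the others (64.4 to 94.8). CD36, ACADM, ACADL, ACADVL, HADHA and HADHB have their highest point in a Pietrain pig.

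Longer genes tended to have lower fold changes in Hampshire pigs (Spearman rho -0.386 over 9945 genes with a known span, a relation across genes and not across independent replicates). CPT1B (5096 bases) and ECHS1 (8183 bases) are the shortest members with a length, against a median of 18949 over all genes, and the other 7 are between 34681 and 92264 bases. With a smooth length trend removed, CPT2 (log2 fold change 1.33, adjusted p = 0.0110) and ECHS1 (0.62, adjusted p = 0.0248) were still called. HADHA then passed too (0.80, adjusted p = 0.0267), and ACADM did not (-0.40, adjusted p = 0.0826). CPT1B dropped to 0.08 (adjusted p = 0.752). The part of gene length in these differences was not tested beyond that.

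**Figure D2:**
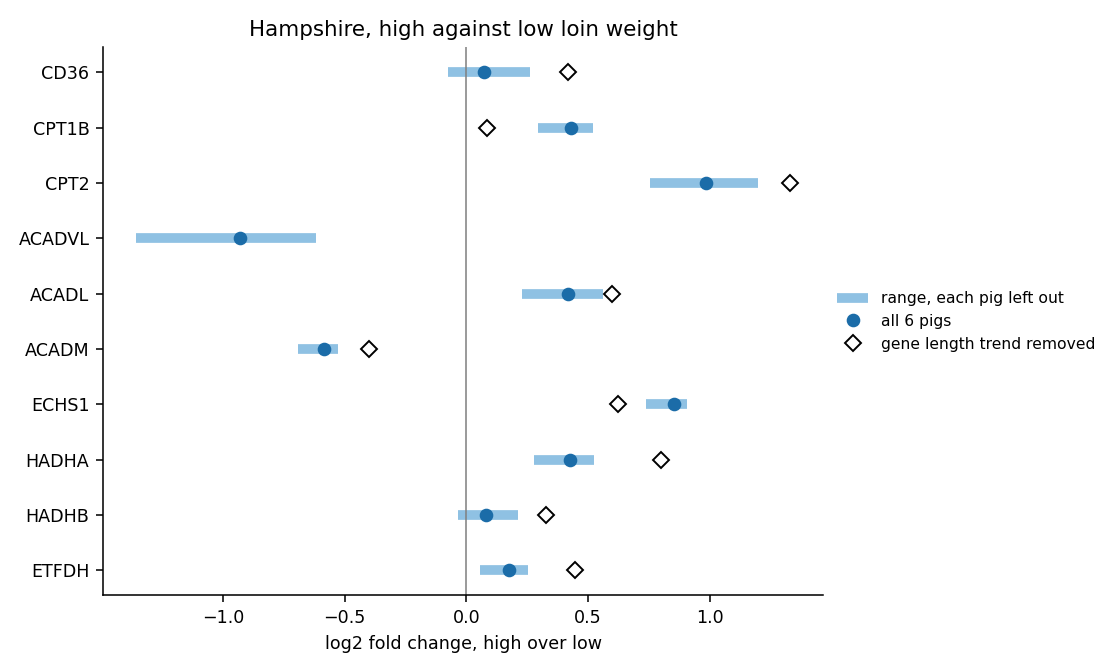
Log2 fold change of each member, high over low loin weight in Hampshire pigs. Circles are the fit of all 6 pigs, bars the range over fits with 1 pig left out, and diamonds the fit with the gene length trend removed (none for ACADVL, which had no length). ECHS1, CPT2 and ACADM keep their sign in every fit, and CPT1B moves from 0.43 to 0.08 with the trend removed.

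In Pietrain pigs no member passed the same test. Over all 12065 genes tested 0 were called, which is 0% (398 had an unadjusted p under 0.05, the smallest adjusted p was 0.939, and DESeq2 called 1 gene). The member with the highest log2 fold change was CPT1B at 0.45 (SE 0.389), and the one with the lowest was ACADM at -0.35 (SE 0.268). None of the 10 had an unadjusted p under 0.05, and their median was -0.08. All 10 had overlapping groups, against 4.59% of genes tested whose groups did not overlap.

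The Pietrain high pigs differed widely among themselves. CPT2 was at 5.14, 13.6, 5.19 and 21.5 CPM in the high pigs 1, 2, 6 and 7, and at 10.0, 9.34 and 11.9 CPM in the low pigs 3, 5 and 8. CPT1B was at 15.9, 23.5, 9.93 and 35.6 CPM against 15.8, 12.4 and 19.7 CPM. Pigs 1 and 6 were low and pigs 2 and 7 were high in both genes. The summed slow fibre markers of those 4 pigs were 1471, 11160, 747 and 11020 CPM, so pigs 2 and 7 were also high in them. In the low pigs 3, 5 and 8 the sums were 8271, 27.7 and 6370 CPM. Pig 5 was the lowest of these low pigs in the markers and in both genes, and both genes spread far less than the markers. The part of fibre type in the spread of CPT2 and CPT1B was not tested. Without pig 7, the pig that stood apart, CPT2 was at -0.36 and CPT1B at 0.06 on the log2 scale (adjusted p = 1.00 for each).

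ECHS1 in Pietrain pigs was at 64.4, 86.7, 65.7 and 94.8 CPM (high) and at 92.9, 83.9 and 86.9 CPM (low), a log2 fold change of -0.14 (SE 0.199). ACADM was at 332, 418, 336 and 241 CPM against 274, 433 and 588 CPM. The low group overlapped the high group in both genes. ACADVL had 0 counts in high pig 6 and 36 to 88 in the other 3 high pigs. HADHA, HADHB, ACADL, ETFDH and CD36 had log2 fold changes from -0.21 to 0.04. The ratios of members given for Hampshire overlapped between the Pietrain groups. CPT2 to CPT1B leaned the other way, at 0.323 to 0.605 (high) and 0.604 to 0.752 (low). HADHA to HADHB was 0.762 to 1.18 (high) and 0.628 to 0.985 (low). ECHS1 to ACADM was 0.194 to 0.393 (high) and 0.148 to 0.339 (low).

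**Figure D3:**
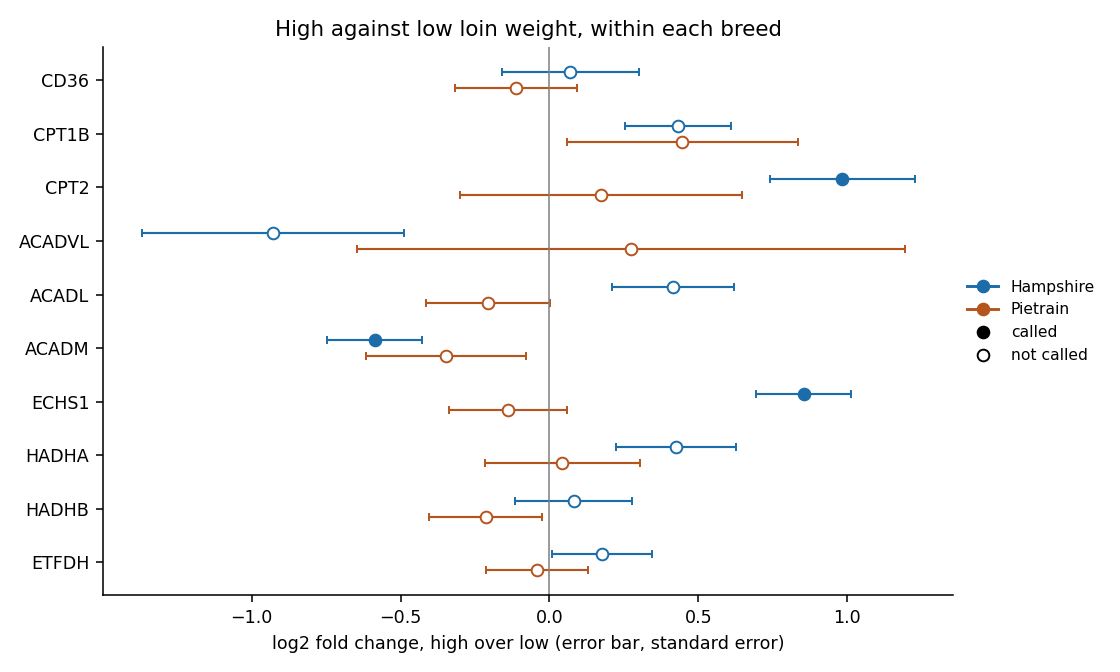
Log2 fold change of the 10 members for high over low loin weight, in Hampshire (3 against 3 pigs) and in Pietrain (4 against 3), with standard errors. Filled circles passed the test. ECHS1 (0.85), CPT2 (0.98) and ACADM (-0.59) are filled in Hampshire, and no Pietrain circle is.

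Whether the loin weight effect differed between the breeds was tested directly in 1 fit over all pigs. Of 12831 genes, 5.90% were called, 1.68% with a higher and 4.22% with a lower effect in Hampshire pigs. ECHS1 was the 1 member called: its Hampshire effect exceeded its Pietrain effect by 1.03 on the log2 scale (SE 0.246, edgeR adjusted p = 0.0260). The adjusted p rose to between 0.0561 and 0.0986 when Hampshire high pig 9 or 10, Hampshire low pig 1, 2 or 3, Pietrain high pig 1 or Pietrain low pig 3, 5 or 8 was left out. It was 0.0125 without Pietrain high pig 7. The call was also lost with the length trend removed (0.82, adjusted p = 0.0528) and with no filter on low counts (0.96, adjusted p = 0.0575). ACADL had a difference of 0.66 (SE 0.298, adjusted p = 0.212) and CPT2 of 0.85 (SE 0.596, adjusted p = 0.440). For CPT1B the difference was 0.02 (SE 0.475, adjusted p = 0.988), and for ACADM -0.20 (SE 0.346, adjusted p = 0.786).

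The breeds were then compared at the same loin weight class. Breed cannot be told apart from any sequencing batch tied to it. Between low loin weight pigs 17.9% of genes were called, 7.84% higher and 10.1% lower in Hampshire. Between high loin weight pigs 46.8% were called, 22.6% higher and 24.2% lower. In the low class 2 of 10 members were called, CD36 and ACADM, both lower in Hampshire. In the high class 5 of 10 were called, CD36 and ACADM again lower and CPT1B, CPT2 and ECHS1 higher.

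CD36, the uptake protein, was at 202, 289.5 and 254 CPM in Hampshire high pigs and at 305, 202 and 199.7 CPM in Hampshire low pigs. In Pietrain it was at 445, 396, 281 and 378 CPM (high) and at 340.2, 460.4 and 447 CPM (low). All 3 low Pietrain pigs were above all 3 low Hampshire pigs, while the high groups overlapped through Pietrain high pig 6. The log2 difference, Hampshire over Pietrain, was -0.82 in low pigs (SE 0.229, edgeR adjusted p = 0.0296) and -0.59 in high pigs (SE 0.216, adjusted p = 0.0357). With the length trend removed it was -0.60 (adjusted p = 0.105) and -0.10 (adjusted p = 0.743). The low class call was lost without Hampshire low pig 2 or 3 or Pietrain low pig 5 or 8 (adjusted p 0.111 to 0.141), and the high class call without Hampshire high pig 8 or 10 or Pietrain high pig 1, 2 or 7 (0.0514 to 0.111).

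ACADM was lower in Hampshire pigs in the high class (log2 difference -0.98, SE 0.242, edgeR adjusted p = 0.00464), where the groups did not overlap. In the low class the log2 difference was -0.78 (SE 0.254, adjusted p = 0.0459), with Pietrain low pig 3 inside the Hampshire range. The high class call held with any 1 pig left out and with the length trend removed (-0.70, adjusted p = 0.0245). The low class call held in 2 of 13 fits with 1 pig left out, those without Pietrain high pig 7 or Pietrain low pig 3. Leaving out Pietrain low pig 8 moved that difference to -0.45 (adjusted p = 0.244). The low class call was also lost with the length trend removed (-0.62, adjusted p = 0.0871), with upper-quartile scaling (adjusted p = 0.0576) and with no filter (adjusted p = 0.0529).

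CPT2 was higher in Hampshire high pigs by 1.87 (SE 0.405, edgeR adjusted p = 0.00216), with no overlap between 32.9 to 53.3 CPM in Hampshire and 5.14 to 21.5 CPM in Pietrain. In the low class the value was 1.02 (SE 0.442, adjusted p = 0.114), with groups that also did not overlap. CPT1B was higher in Hampshire high pigs by 0.98 (SE 0.320, adjusted p = 0.0218), with Pietrain high pig 7 (35.6 CPM) inside the Hampshire range of 35.3 to 48.8. In the low class it was at 0.96 (SE 0.349, adjusted p = 0.0684). Without Pietrain high pig 7 the high class values were 2.39 for CPT2 (adjusted p = 0.000186) and 1.35 for CPT1B (adjusted p = 0.00156). The CPT1B call was lost without Hampshire high pig 9 or 10 or Pietrain high pig 1 (adjusted p 0.0694 to 0.106) and with the length trend removed (0.50, adjusted p = 0.179).

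ECHS1 was higher in Hampshire high than in Pietrain high pigs by 0.87 (SE 0.167, edgeR adjusted p = 0.00101), and its groups did not overlap. Between low pigs it was at -0.16 (SE 0.180, adjusted p = 0.536). The high class call held with any 1 pig left out and with the length trend removed (0.53, adjusted p = 0.0118). ETFDH, at 166 to 200.4 CPM in Hampshire high pigs and 125 to 150.2 in Pietrain high pigs, did not pass (0.37, SE 0.156, adjusted p = 0.0661). It did with the length trend removed (0.77, adjusted p = 0.00186). ACADL was at -0.62 in the low class (SE 0.219, adjusted p = 0.0626) and at 0.04 in the high class. HADHA and HADHB lay between -0.29 and 0.13 in both classes.

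**Figure D4:**
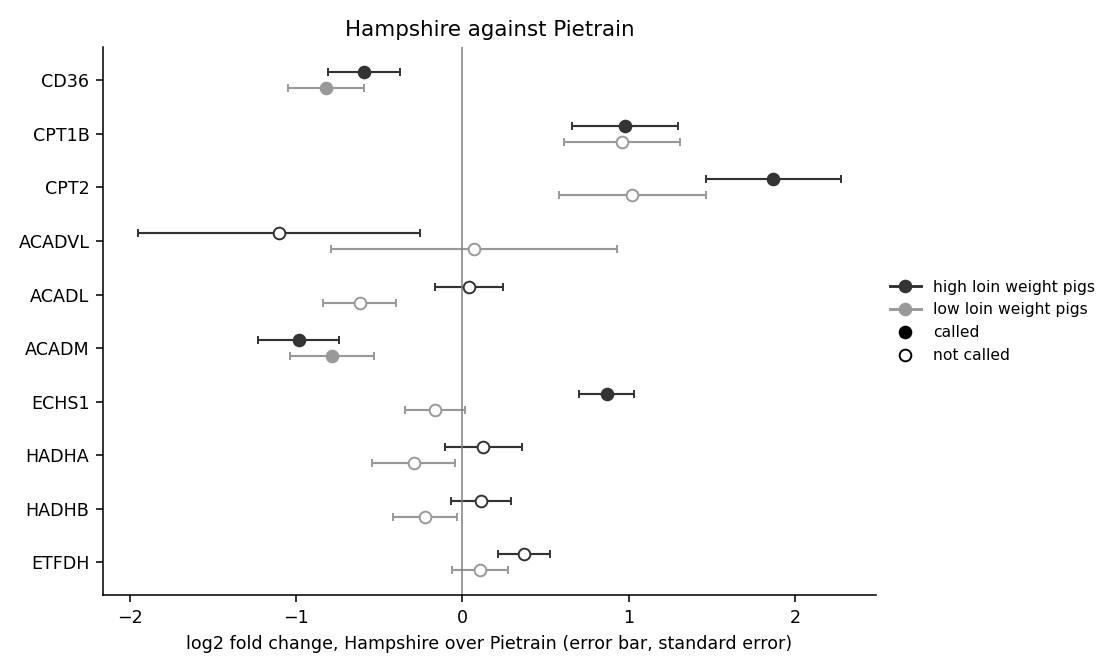
Log2 difference of the 10 members, Hampshire over Pietrain, among high loin weight pigs (3 against 4) and low loin weight pigs (3 against 3), with standard errors. Filled circles passed the test. CD36 and ACADM lie below 0 in both classes (-0.59 to -0.98), and CPT2 reaches 1.87 in the high class.

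Markers of some other cells moved with several of these contrasts. In Hampshire high pigs, the 3 measured of 6 adipocyte markers summed to 26.2 to 75.9 CPM against 9.95 to 16.0 in the low pigs, and 2 of the 3 were called higher. The 7 measured of 8 macrophage markers summed to 144 to 210.2 CPM in Hampshire high pigs and to 46.5 to 124 CPM in Hampshire low pigs, without overlap, and 1 of the 7 was called higher, with all 7 above 0 and a median log2 fold change of 1.09. In Pietrain high pigs they summed to 18.0 to 55.4 CPM, and 7 of 7 were called higher in Hampshire in the high class and 5 of 7 in the low class. The slow fibre sums did not overlap between the high groups (11700 to 17800 CPM in Hampshire, 747 to 11160 CPM in Pietrain). All 5 slow fibre markers lay above 0 there, with a median log2 difference of 1.48, but 0 of 5 passed the test in either class. Of the 5 measured of 8 endothelial markers, 0 were called with loin weight in Hampshire and 0 between breeds in the low class. In the high class 2 of them were called higher in Hampshire. Of 2 measured blood markers 0 were called in any of these contrasts. The part of these cells in the members' differences was not tested.

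Taken in order of group means, ECHS1 was highest in Hampshire high pigs, and the other groups overlapped. CPT2 and CPT1B ran from Hampshire high to Hampshire low, Pietrain high and Pietrain low, and only the first pair of neighbours in that order did not overlap. ACADM ran from Pietrain low to Pietrain high, Hampshire low and Hampshire high, where only the last pair did not overlap. The members did not share 1 profile over the pigs. HADHA lay nearest to the mean standardized profile of the 10 genes (root mean square difference 0.440 SD units over 13 pigs), and ACADM (1.35) and CD36 (1.17) lay farthest. The mean profile was lowest in Pietrain high pig 6 (-1.94) and highest in Pietrain low pig 8 (1.42).

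Outside the list, the 5 genes whose profile was most like that mean were AMT (0.446), TRPT1 (0.512), ABHD10 (0.571), ATP5B (0.573) and FMO1 (0.574), against a median of 1.36 over 9805 genes. This is a description of likeness over 13 pigs that share breed and depth differences. AMT is part of the glycine cleavage system and ATP5B is the beta subunit of the ATP synthase. The first 2 genes had low levels, from 0.519 to 4.2 CPM for AMT and from 0.26 to 6.92 CPM for TRPT1.

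The rest of the pathway was described from a list of 32 further genes, of which 29 were in the tables and 28 were tested. In Hampshire pigs 6 were called higher and 2 lower with high loin weight, against the 12.0% and 14.6% of all genes given above, and their median log2 fold change was 0.17. Import, activation and enzyme genes held 5 of the higher calls and no lower call among 21 tested. Both lower calls were of transcription regulators. The citric acid cycle, listed for comparison, had 3 of 17 called higher, none lower, and a median of 0.07. In Pietrain pigs 0 of the 28 were called, and 0 were called for a different loin weight effect between breeds. That second 0 depended on the setting. PPARA, described below, was near the threshold (-2.03, edgeR adjusted p = 0.0532). It passed with upper-quartile scaling (adjusted p = 0.0430) and with DESeq2 (0.0261). CPT1A (edgeR adjusted p = 0.112) also passed with DESeq2 (0.04997).

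CPT1A, the form of the outer-membrane transferase best known from liver, was at 14.2, 15.3 and 29.9 CPM in Hampshire high pigs and at 2.63, 4.08 and 5.53 CPM in low pigs. Its log2 fold change was 2.29 (edgeR adjusted p = 0.00485), against 0.43 for CPT1B. The CPT1A to CPT1B ratio was 0.366 to 0.612 in the high pigs and 0.0901 to 0.192 in the low pigs. These ranges had to lie apart, since in fold terms the gap in CPT1A was wider than the whole Hampshire range of CPT1B. UCP3, an uncoupling protein of muscle mitochondria, was at 176, 321 and 264 CPM against 42.2, 85.7 and 89.3 CPM, a log2 fold change of 1.81 (adjusted p = 0.00647). No high pig overlapped a low pig in either gene. In Pietrain pigs the CPT1A to CPT1B ratio overlapped, at 0.2 to 1.27 (high) and 0.249 to 0.375 (low). UCP3 had the same direction in Pietrain pigs, at a log2 fold change of 1.21 (SE 0.391). Its groups overlapped there, and it did not pass (edgeR adjusted p = 0.939). With 1 Pietrain pig left out this value ran from 0.85, without high pig 7, to 1.49.

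ETFB, the beta subunit of the flavoprotein that hands electrons to ETFDH, was at 109, 137 and 109.9 CPM in Hampshire high pigs and at 58.7, 52.3 and 41.4 CPM in low pigs, at a log2 fold change of 1.22 (edgeR adjusted p = 0.00434). The alpha subunit ETFA had 0.22 (adjusted p = 0.429), and the ratio of ETFB to ETFA was 0.537 to 0.810 in the high pigs and 0.301 to 0.371 in the low pigs. Here too the ranges had to lie apart, since in fold terms the gap in ETFB was wider than the whole Hampshire range of ETFA. ETFA was named for this ratio after its values were seen. FABP3, the fatty acid binding protein of heart and muscle, was higher by 1.2 on the log2 scale (adjusted p = 0.00863). The inner-membrane carrier SLC25A20, which exchanges acylcarnitine for carnitine, and the enzyme CRAT, which moves short acyl groups between coenzyme A and carnitine, were named after their values were seen, at 0.71 (adjusted p = 0.0217) and 0.79 (adjusted p = 0.0259). Each of these 2 calls was lost in 4 of 6 fits with 1 pig left out. In Pietrain pigs the ETFB to ETFA ratio overlapped, at 0.178 to 0.545 (high) and 0.152 to 0.286 (low).

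PPARGC1A, a coactivator of mitochondrial genes, was lower in Hampshire high pigs, at 1.98, 3.36 and 2.05 CPM against 7.84, 4.76 and 11.8 CPM (log2 fold change -1.74, edgeR adjusted p = 0.0131). PPARA, a nuclear receptor that drives fatty acid oxidation genes, was lower too (log2 fold change -1.83, adjusted p = 0.0167), at 0.272 to 0.818 CPM against 1.85 to 2.24 CPM. Without low pig 3 neither passed (adjusted p = 0.0563 and 0.0695), and in 1 fit over all pigs PPARGC1A did not pass (adjusted p = 0.144). PDK4, which holds back pyruvate oxidation, ran from 25.7 to 212 CPM in the high pigs and from 10.3 to 179 CPM in the low pigs, and did not pass (0.40, adjusted p = 0.803).

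The largest breed difference among these named genes was in PPARGC1A. It was at 171 to 201 CPM in Pietrain low pigs and at 86.7 to 183 CPM in Pietrain high pigs 1, 2 and 6, but at 5.55 CPM in Pietrain high pig 7, inside the Hampshire range. The log2 difference, Hampshire over Pietrain, was -4.50 in low pigs (edgeR adjusted p = 0.00965) and -5.38 in high pigs (adjusted p = 0.000283). Without Pietrain high pig 7 it was -4.506 in low pigs (edgeR adjusted p = 0.000137) and -5.775 in high pigs (adjusted p = 2.56e-06). Of the 28 genes, 5 were called higher and 5 lower in Hampshire in the low class, and 11 higher and 5 lower in the high class. Over all genes the called shares were 7.84% higher and 10.1% lower in the low class and 22.6% and 24.2% in the high class. In the low class the PPARGC1A difference had an adjusted p of 0.0572 without Hampshire low pig 2.

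**Figure D5:**
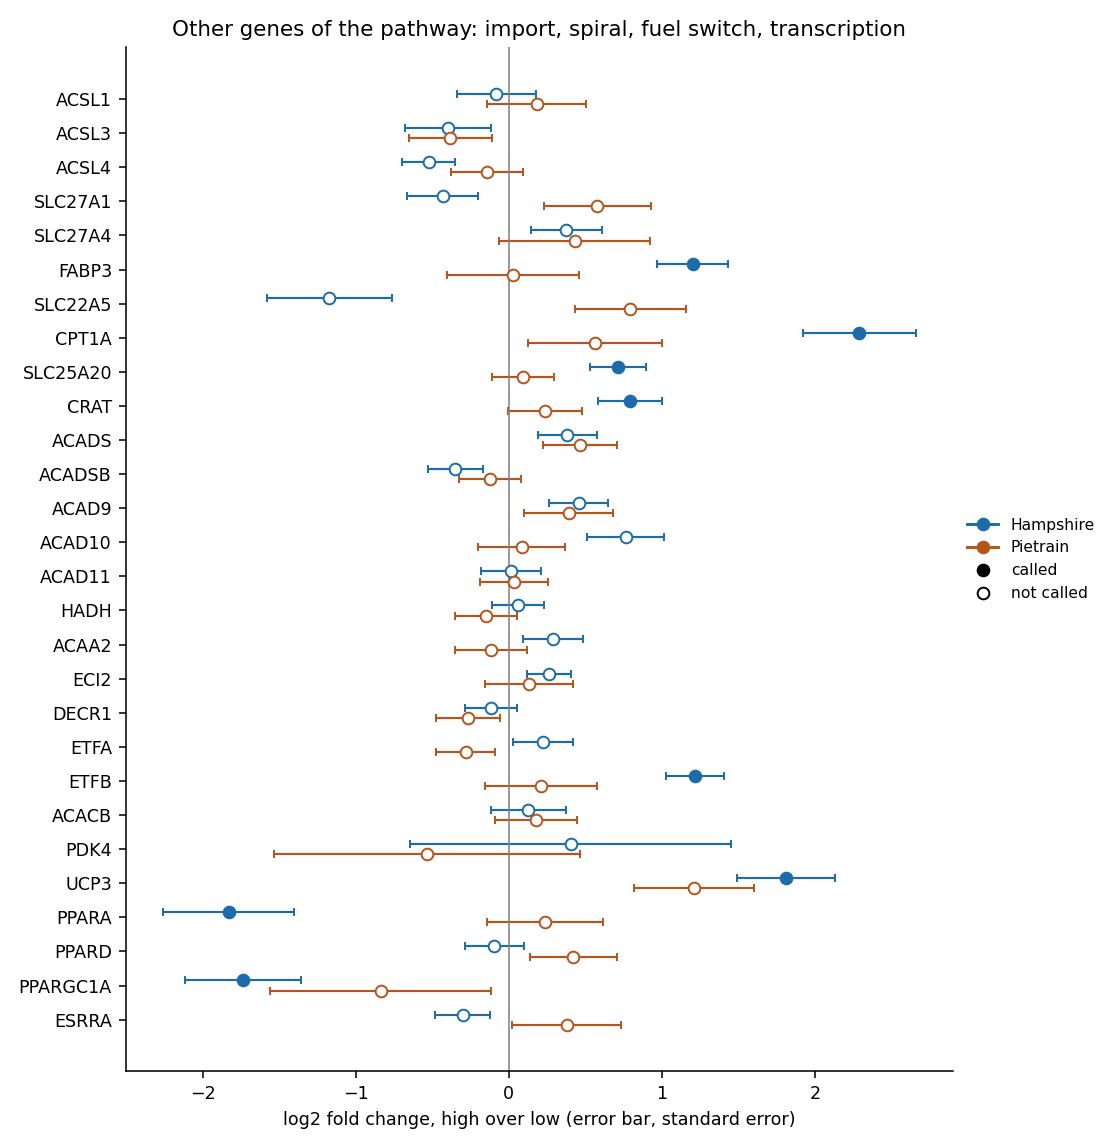
Log2 fold change of the 28 further pathway genes for high over low loin weight in Hampshire (3 against 3 pigs) and Pietrain (4 against 3), with standard errors, ordered by import, spiral, fuel switch and transcription. Filled circles passed the test. CPT1A (2.29) and UCP3 (1.81) lie highest in Hampshire, and no Pietrain circle is filled.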

How the data were processed

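RNA from loin muscle (TruSeq RNA v2, RIN above the study's minimum) was sequenced by the authors as single-end reads in repeated runs. The authors deposited raw counts per Ensembl gene and pig for each breed. Per the labels, FastQC, STAR, RSEM and DESeq2 were used with Sscrofa10.2, with no versions given. The authors' own comparison columns (DESeq2 fold changes and p-values) were not used.

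The members and lists were chosen with earlier results of these data known. Of 25322 identifiers 13168 had a symbol, 7066 from the authors' tables and 6102 from RefSeq names (Sscrofa11.1, names only). The counts were tested in R 4.3.3 with edgeR 4.0.16 (TMM, filterByExpr, glmQLFit, glmQLFTest), within each breed for loin weight and in 1 fit of 4 groups over 13 pigs for breed and for the difference in effect. A call needed an adjusted p under 0.05 and a fold of at least 1.2, or the adjusted p alone for the difference in effect. SE was the log2 fold change over the square root of F. Exact permutation tests used log2(CPM + 0.5). The code was tested on simulated data. All 10 members were named, and of the other pathway genes the 6 with the smallest adjusted p among those called in Hampshire, with UCP3 and PDK4 always. Alternatives were DESeq2 1.42.0, other scalings and filters, a gene length correction (lowess span 0.3) and leaving out each pig. Every pair of pigs within a group differed by more than sampling noise. All 4 Pietrain high pigs of the labels were used, and the study's animal table lists fewer. Whether pigs shared a slaughter day or a sequencing lane is not given in the sources used here.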

Additional observations from a re-analysis of the deposited data

Results flagged for a closer look

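ECHS1 had a larger loin weight effect in Hampshire than in Pietrain pigs, by 1.03 on the log2 scale (edgeR adjusted p = 0.0260), and the difference itself was tested. The call held in 4 of 13 fits with 1 pig left out, and it was lost with the length trend removed (adjusted p = 0.0528) and with no filter (0.0575). ECHS1 was higher in 3 of 3 Hampshire high pigs than in any Hampshire low pig. Among the 10 genes in the 4 Pietrain high pigs, the group large enough to be checked for a single pig far from the rest, no such pig was found.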

How the results depend on the processing

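The number of members called, 3 in Hampshire, 0 in Pietrain, 2 and 5 between breeds in the low and the high class and 1 for the difference in effect, was 0 in Pietrain under every alternative. In Hampshire it was 1 in 1 fit over all pigs (ECHS1, with CPT2 at adjusted p = 0.124 and ACADM at 0.119) and 1 to 3 with 1 pig left out. Between breeds in the low class it was 4 with DESeq2, 1 with upper-quartile scaling, 1 with no filter, 3 with at least 10 counts in every pig (CPT1B gained, adjusted p = 0.0444), 0 with the length trend removed and 0 to 4 with 1 pig left out. In the high class it was 6 with DESeq2, 4 with the length trend removed (CPT1B and CD36 lost, ETFDH gained) and 3 to 6 with 1 pig left out. For the difference in effect it was 0 with no filter, 0 with the length trend removed and 0 to 1 with 1 pig left out. DESeq2 also called ACADL (adjusted p = 0.0257) and CPT1B (0.0423) in the low class and ETFDH (0.0456) in the high class.

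Of 835 values of members under an alternative, 737 kept direction and side of the threshold, 51 lost the call, 10 gained one and 37 changed sign, none of them of a called value. The sign changes were of ACADL in the high class with no filter (-0.0153), and of CPT1B in the difference in effect with upper-quartile scaling (-0.0455), no filter (-0.0508), at least 10 counts in every pig (-0.0231) and the length trend removed (-0.26). With 1 pig left out, log2 values in Hampshire ran from -0.0766 to 0.262 for CD36, from -0.0341 to 0.213 for HADHB and from -1.18 to 2.50 for PDK4. In Pietrain they ran from -0.102 to 0.0231 for ETFDH, from -0.0864 to 0.298 for HADHA, from -0.208 to 0.0232 for CD36, from -0.36 to 0.43 for CPT2, from -0.20 to 0.82 for ACADVL and from -0.0424 to 0.420 for ETFB. Between breeds they ran from -0.34 to 0.65 for ACADVL in the low class, and from -0.16 to 0.17 for ACADL and -0.0495 to 0.245 for HADHA in the high class. For CPT1B in the difference in effect they ran from -0.29 to 0.39. The causes were not tested. ACADVL passed in the high class without Pietrain high pig 6 (-1.54, adjusted p = 0.0307).

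Over all genes, leaving out 1 pig moved the count of calls from 3256 to between 1224 and 3049 in Hampshire and from 2300 to between 109 and 3091 in the low class, where it was 109 without Hampshire low pig 2, 501 without Hampshire low pig 3, 163 without Pietrain low pig 5 and 111 without Pietrain low pig 8. For the difference in effect it moved from 757 to between 379 and 1052, to 1246 with DESeq2 and to 498 with the length trend removed, where 17.9% of calls were higher in place of 28.4%. The count fell by over 1.5 times without Hampshire high pig 9 or 10 or low pig 3 in Hampshire, and without those pigs, Hampshire low pig 2 or Pietrain low pig 5 or 8 for the difference in effect. No paired analysis was possible because the numbers in the labels name pigs and do not pair the groups compared. With 3 or 4 pigs a group, differences near the standard errors given were not detectable.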
